A study of Homo sapiens with 12 samples.

Results

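Small nucleolar RNAs (snoRNAs) guide chemical modification of ribosomal RNA, and in human cells most of them are cut out of the introns of longer host transcripts. Of the 57773 genes in the deposited gene tables, 10 long noncoding snoRNA hosts were taken by their symbols: GAS5, ZFAS1, SNHG1, SNHG5, SNHG6, SNHG7, SNHG8, SNHG12, SNHG16 and DANCR. All 10 were found once, among 13324 genes of long noncoding types. The rule itself names symbols and uses no measured value.

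The study combined proximity labelling with RNA capture in HEK293, a human embryonic kidney cell line, in its T-REx form, which allows induction with doxycycline. Cells carried APEX2, a peroxidase that tags nearby proteins with biotin, as APEX2-NES (with a nuclear export signal, for the cytoplasm), H2B-APEX2 (fused to a core histone, for chromatin) or Connexin43-APEX2 (fused to a gap junction protein, for cell contacts). A T-REx line was the negative control. All 4 lines, the control included, had 16 h of 4-thiouridine and doxycycline and 30 min of biotin-phenol before labelling. Total RNA came from whole extracts, and bound RNA is what streptavidin beads retained. There was 1 sample per group among the 12 groups (total RNA, bound RNA and footprints in 4 lines), so differences between lines are described by their size; p-values appear only where the 2016 and 2017 tables were taken as replicates, as an alternative. Bound RNA of the control, APEX2-NES and Connexin43-APEX2 stands in a 2016 and in a 2017 table, and bound RNA of H2B-APEX2 in the 2017 table alone. The labels do not say whether the tables hold separate cultures or whether a line is 1 clone. In these bulk libraries, fewer cells with a transcript and less of it per cell cannot be told apart.

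Host genes of this class are transcribed at high rates, spliced to release the snoRNAs, and leave exons that in most cases encode no conserved protein. The spliced exons of several hosts, GAS5 among them, are known to be exported, bound by ribosomes and broken down by nonsense-mediated decay, the pathway that removes messages with early stop codons. Many hosts start with a terminal oligopyrimidine tract, a run of C and T also found at the start of ribosomal protein messages, where it couples translation to growth signals. GAS5 accumulates in growth-arrested cells, and DANCR is known as a transcript that holds back differentiation. ZFAS1 lies antisense to the start of ZNFX1.

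Runs of C and T near the start were looked for in RefSeq sequences (GRCh38.p14), each read from 10 bases before the annotated start to 20 bases from it, 30 bases in all, on the transcript's own strand. The longest run made of C and T alone is in capitals. SNHG12 is shown for the longest run, SNHG16, SNHG1, ZFAS1 and SNHG5 as hosts with runs of 6 to 8 bases, and GAS5 as the exception.
SNHG12 (chr1:28581854-28581883, minus strand): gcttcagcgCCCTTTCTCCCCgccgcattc
SNHG16 (chr17:76557754-76557783, plus strand): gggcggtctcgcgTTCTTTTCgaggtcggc
SNHG1 (chr11:62855866-62855895, minus strand): gagattcgttctcaTTTTTCTactgctcgt
ZFAS1 (chr20:49278632-49278661, plus strand): gccattcgTTCTTTCgcgtctgcggtgccc
SNHG5 (chr6:85678714-85678743, minus strand): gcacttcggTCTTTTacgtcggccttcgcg
GAS5 (chr1:173869026-173869055, minus strand): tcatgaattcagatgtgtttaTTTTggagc
No window was read for SNHG6, so nothing is said of its start. A run of at least 6 such bases stood in 8 of the 9 host windows read (88.9%). Over all 35116 start windows of this length the share was 30.4%. It was 15 of 22 windows (68.2%) for ribosomal protein genes that host snoRNAs and 10 of 30 windows (33.3%) for other protein-coding hosts. These are counts of windows and not of genes, since a gene could have several (26 other protein-coding hosts are listed). The GAS5 window held a run of 4 bases, which says only that the letters are not in that window of that annotated start. Runs were searched on the transcript's strand only, wherever they fell in the window, so a match is not a mapped tract. The SNHG7 run lies wholly before the annotated start. The runs of SNHG16, SNHG1 and DANCR lie after it, beginning at bases 4, 5 and 15 counted from the start.

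The libraries differed widely in ways that bear on every value. Assigned reads ran from 8959049 to 56785950 per library, and all 10 hosts had reads in all 12 RNA libraries. The reads summed over the hosts ran from 2098 to 29882 per library, which is 0.00643% to 0.0663% of the assigned reads. The lowest of these shares belongs to the total RNA library of the 2016 table, whose column names no line and in which protein-coding genes took 3.5% of assigned reads. In the other 11 libraries that percentage was 11.9 to 60.1, highest in bound RNA of H2B-APEX2. Total RNA libraries were made with depletion of ribosomal RNA and bound RNA libraries without it. Summed levels of 10 fibroblast-like marker genes, none of them at 0 in any library, were 1090 and 224 RPKM in the control's bound RNA in 2016 and 2017. They were 101 and 164 RPKM in APEX2-NES, 102 and 70.2 RPKM in Connexin43-APEX2, and 6.51 RPKM in H2B-APEX2 bound RNA, against 2.53 to 39.8 RPKM in total RNA. Their part in any result was not tested. Among 7 HEK293 markers, 3 to 5 reached 1 RPKM in each library other than the 2016 total RNA library, where none did, and up to 2 stood at 0.

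Levels are given as the deposited RPKM (reads scaled to counted length and library size). In total RNA of the 2017 table SNHG5 and ZFAS1 were the most abundant hosts. SNHG5 stood at 85.6 RPKM in the control, 58.0 with APEX2-NES, 50.8 with H2B-APEX2 and 73.4 with Connexin43-APEX2. ZFAS1 stood at 65.3, 41.0, 41.6 and 42.9 RPKM in the same order. The ranges of SNHG5 and ZFAS1 overlap, and each was highest in the control. SNHG6 came next, at 18.6 RPKM in the control, 22.9 with APEX2-NES, 22.0 with H2B-APEX2 and 23.7 with Connexin43-APEX2. SNHG6 overlapped neither the hosts above it nor those below it.

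The middle of the order was held by SNHG8 (11.5 to 15 RPKM over the 4 lines, median 13.2), GAS5 (8.78 to 15.7, median 12.3) and DANCR (4.15 to 12.0, median 9.81). SNHG8 and DANCR each overlap GAS5 and each other across lines, so their order is not fixed. DANCR was lowest in Connexin43-APEX2 (4.15 RPKM) and at 12.0 RPKM in both the control and H2B-APEX2. SNHG7 had 4.57 RPKM in the control, 3.94 with APEX2-NES, 2.75 with H2B-APEX2 and 11.5 with Connexin43-APEX2, the widest span of the 10 in total RNA (4.18-fold). The lowest hosts were SNHG12 (2.05 to 3.68 RPKM), SNHG1 (1.57 to 1.71) and SNHG16 (1.24 to 2.02). SNHG1 had the narrowest span, at 1.09-fold.

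Bound RNA had another order, with smaller gaps between hosts. In the 2017 table SNHG5 ranged from 8.69 to 19.7 RPKM and ZFAS1 from 8.98 to 20.2 RPKM, both well under their total RNA levels in each line. SNHG1 (1.73 to 2.33 RPKM) was at or above its total RNA level in all 4 lines, and SNHG16 (1.72 to 3.37 RPKM) in all but Connexin43-APEX2. Bound SNHG6 stood at 3.76 RPKM in the control, 7.34 with APEX2-NES, 48.1 with H2B-APEX2 and 8.24 with Connexin43-APEX2, a 12.8-fold span. SNHG6 in H2B-APEX2 is the highest bound level of any host in either table. Bound DANCR was also highest in H2B-APEX2, with 3.02, 3.51, 13 and 2.25 RPKM in the same 4 lines.

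In the 2016 table, bound RNA of Connexin43-APEX2 held more of 7 hosts than bound RNA of the control did; the exceptions were SNHG1, SNHG8 and SNHG16. SNHG1 had 10.8 RPKM in the control, 1.64 in APEX2-NES and 4.95 in Connexin43-APEX2 there. Its level in the control's bound RNA in 2017 was 1.74 RPKM, so the tables disagree on this host. Hosts in the 2016 total RNA library stood between 0.0901 RPKM (SNHG16) and 3.09 RPKM (ZFAS1), each under its 2017 total RNA levels.

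**Figure D1:**
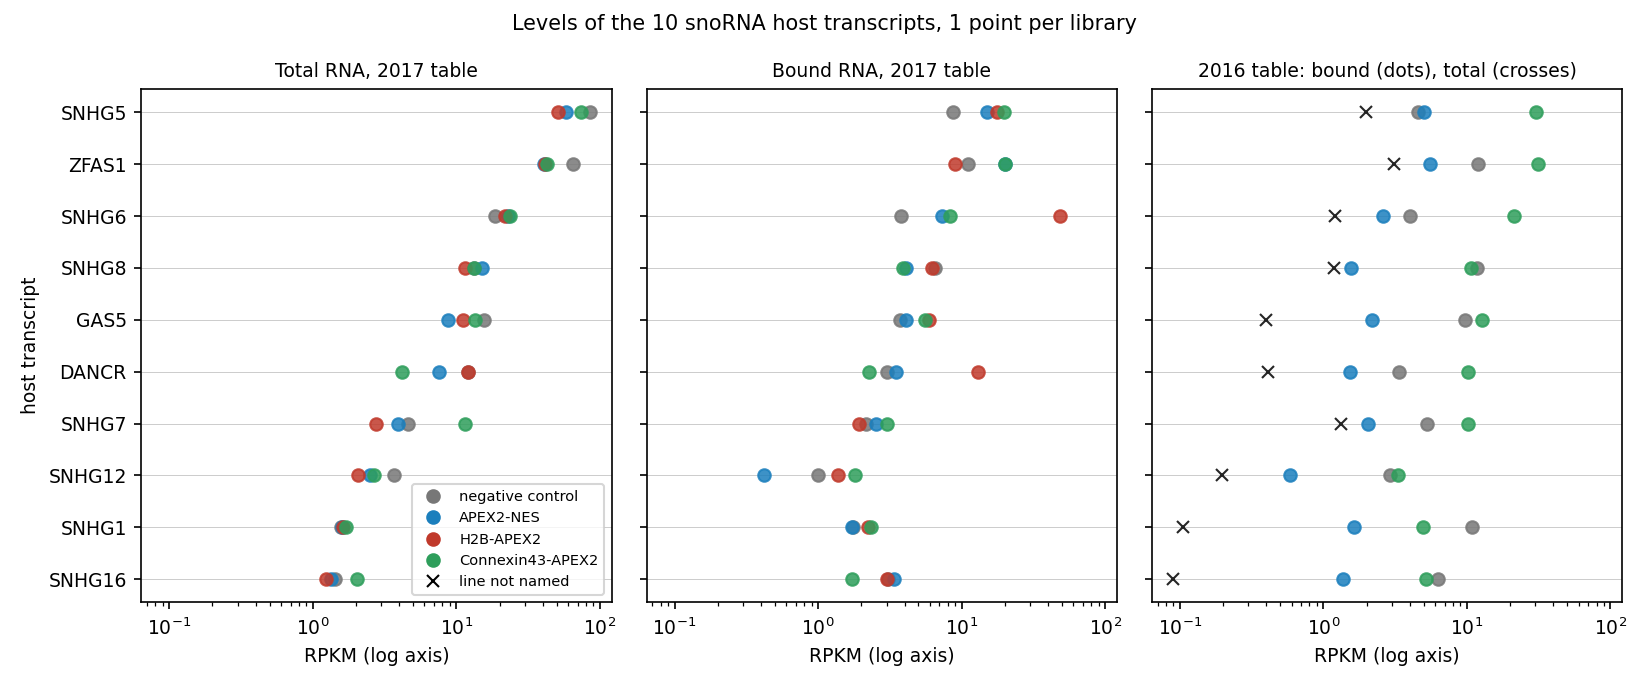
Levels of each host transcript in RPKM on a log axis, 1 point per library, with lines by colour and hosts ordered by their median in total RNA of the 2017 table. SNHG6 in bound RNA of H2B-APEX2 (48.1 RPKM) lies apart from the other 3 lines, which are between 3.76 and 8.24 RPKM, and the crosses of the 2016 total RNA library lie left of the dots in their rows.

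The comparison of bound with total RNA within a line asks how much of each transcript the beads retained, given what was in the cell. Differences are on the log2(RPKM + 1) scale and were centred on the median of all genes tested, that is, genes with a mean of at least 1 RPKM over the libraries compared. A host was called where it lay at least 2-fold from the median gene in the same direction in every table with both sides. Errors are counting standard errors (SE) and hold nothing of the spread between cultures.

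In the 2017 table most hosts, in bound against total RNA of each of the 4 lines, lay below the median gene. Below it were 9 of 10 hosts in the control (median of the hosts -2.15), 8 of 9 tested for APEX2-NES (-1.06), 8 of 10 for H2B-APEX2 (-1.08) and 10 of 10 for Connexin43-APEX2 (-1.51). By construction the median of all genes tested was 0. In H2B-APEX2, the line with 1 table, 6 hosts were called lower (GAS5, ZFAS1, SNHG5, SNHG7, SNHG8 and SNHG12) and none higher, where 33.2% of all genes were called lower and 18.7% higher. ZFAS1 was lowest, at -2.81 ± 0.07 (SE), followed by SNHG5 at -2.20 ± 0.03. The hosts without a call were DANCR (-0.60 ± 0.06), SNHG1 (-0.42 ± 0.07), SNHG16 (0.13 ± 0.07) and SNHG6 (0.38 ± 0.06). SNHG6 and SNHG16 were the hosts above the median gene in this line. Before centring the median gene itself lay at 0.71, and on that scale ZFAS1 and SNHG5 kept the call while SNHG6 was called higher (1.09).

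In the control, SNHG5 and SNHG6 were called lower in both tables and no host was called higher; among all genes 6.36% were called lower and 5.52% higher. SNHG5 lay at -1.51 ± 0.09 in 2016 and -3.85 ± 0.04 in 2017. SNHG6 lay at -1.22 ± 0.16 in 2016 and -2.73 ± 0.10 in 2017. ZFAS1 (-3.15 ± 0.06), GAS5 (-2.52 ± 0.05) and DANCR (-2.39 ± 0.08) were also far down in 2017, but in 2016 they lay at -0.74, 0.54 and -0.77. The labels name no APEX2 fusion for this line, so these values describe what the beads retained without one. Without centring neither call held, since the median gene lay at 2.40 in 2016 and 0.69 in 2017.

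In APEX2-NES no host was called in either direction (5.7% of all genes lower, 5.78% higher; SNHG12 fell under the level filter). SNHG5 at -2.01 ± 0.04, SNHG8 at -1.77 ± 0.10 and SNHG6 at -1.64 ± 0.08 were at least 2-fold down in 2017, while in 2016 they lay at -0.14, -0.91 and -0.43. In Connexin43-APEX2 no host was called either (6.25% lower, 3.36% higher). There the tables had opposite signs for 5 of 10 hosts: SNHG5 was at -2.25 ± 0.04 in 2017 and 0.86 ± 0.05 in 2016, and GAS5 at -1.56 ± 0.05 and 0.75 ± 0.04, with ZFAS1, SNHG6 and DANCR likewise. The 2016 side of these values rests on the total RNA library in which most hosts lie near or under the added 1 RPKM, which compresses their differences. With 0.1 RPKM added in its place, 4 hosts of 9 in APEX2-NES, 5 of 10 in Connexin43-APEX2 and 7 of 10 in the control were called lower in both tables, and none higher. With counts scaled by edgeR's TMM factors the numbers were 8, 8 and 8 of 10. The share of all genes called under these 2 alternatives is not given here, so these counts have no background beside them.

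**Figure D2:**
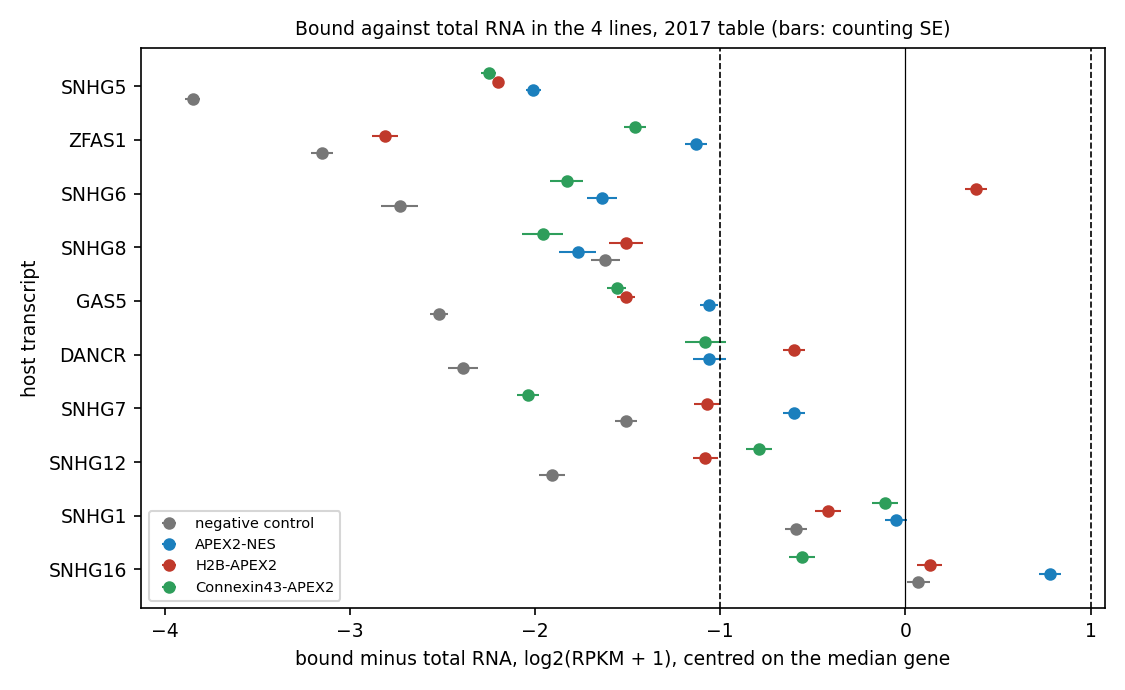
Centred log2 difference between bound and total RNA of each host in the 4 lines (2017 table), with counting SE as bars and dashed lines at 2-fold. Points sit mostly left of 0; SNHG6 in H2B-APEX2 (0.38) lies right of SNHG6 in the other 3 lines, between -2.73 and -1.64.

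Ribosomal protein genes that host snoRNAs, taken as a list beside the hosts, had medians of -3.34 in the control, -1.5 with APEX2-NES, -3.01 with H2B-APEX2 and -2.01 with Connexin43-APEX2 in the same 2017 comparisons. Of these 26 genes 21 were called lower in H2B-APEX2 and RPL5 was called higher (1.13). The other protein-coding snoRNA hosts, such as NCL, which encodes the nucleolar protein nucleolin, had medians of 0.11, 0.67, 0.62 and 0.03. NCL was called higher in bound RNA of each of the 4 lines (1.26 in the control and 1.82, 2.34 and 1.45 in APEX2-NES, H2B-APEX2 and Connexin43-APEX2, 2017). All long noncoding genes tested had medians of 0.77, 1.69, 0.69 and 0.67. The level filter took the mean over bound and total libraries together, so a gene could enter through its bound level alone. These medians depend on that filter, and no contrast with the 10 hosts is drawn from them. The 2016 table did not repeat the 2017 medians. For the control, APEX2-NES and Connexin43-APEX2 the long noncoding genes had 2016 medians of -0.10, -0.12 and -0.33. Those of the 10 hosts were -0.72, -0.31 and 0.19, and those of the ribosomal protein hosts -0.18, -0.22 and 0.38. The other protein-coding hosts had medians of 0.79, 0.88 and 0.89 there. Fewer other noncoding snoRNA hosts passed the filter (3 to 6 per line), with 2017 medians of -1.11, -1.07, -1.28 and -1.21. Among them EPB41L4A-AS1 was called lower in the control (-1.49 in 2016 and -1.92 in 2017) and in H2B-APEX2 (-1.33). These lists are described by their medians and counts, with no test of a difference between them.

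The comparison of each APEX2 line with the control in bound RNA asks what labelling added to the background of the beads. It takes no account of total RNA, which also differed between lines. For H2B-APEX2 all 10 hosts lay above the median gene (median 0.52). SNHG6 (3.65 ± 0.10, 12.5-fold), DANCR (2.08 ± 0.08, 4.24-fold) and SNHG5 (1.21 ± 0.05, 2.32-fold) were called higher and none lower, where 25.2% of all genes were called higher and 17.2% lower. The 3 of 10 is thus near the background. SNHG5 lost its call without centring (0.93) and with the GC trend removed (0.67). SNHG6 exceeded 99.2% of the 7543 genes tested and DANCR 91.2%. GAS5 followed without a call, at 0.85 ± 0.05, and ZFAS1 lay at 0.01 ± 0.08.

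For Connexin43-APEX2, ZFAS1, SNHG5 and SNHG6 were called higher in both tables and no host lower, where 2.5% of all genes were called higher and 2.03% lower. SNHG5 was at 4.53 RPKM in the control and 30.5 in Connexin43-APEX2 in 2016, and at 8.69 and 19.7 RPKM in 2017, or 2.69 ± 0.09 and 1.44 ± 0.05 after centring. SNHG6 was at 4.00 against 21.3 RPKM in 2016 and 3.76 against 8.24 RPKM in 2017, or 2.33 ± 0.15 and 1.30 ± 0.12. ZFAS1 was at 11.9 against 31.3 RPKM and 11.1 against 20.2 RPKM, or 1.5 ± 0.10 and 1.16 ± 0.08. These 3 are also the most abundant hosts in total RNA. Without centring, or without the filter on low levels, SNHG5 kept the call and ZFAS1 and SNHG6 lost it in 2017. With the tables taken as replicates, limma gave adjusted p = 0.178 for SNHG5 and SNHG6 and 0.201 for ZFAS1 over 9532 genes. The smallest adjusted p that limma gave any gene here was 0.178, so neither these 3 nor any other gene passed 0.05. GAS5 (0.53 and 0.83), SNHG7 (1.00 and 0.69) and SNHG12 (0.32 and 0.82) were above the median gene in both tables without passing 2-fold in each. Total RNA of SNHG7 in 2017 was higher in Connexin43-APEX2 than in the control by 1.60. DANCR was at 1.52 ± 0.13 in 2016 and 0.03 ± 0.12 in 2017, and SNHG1 changed sign (-0.81 ± 0.06 and 0.62 ± 0.08).

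The ribosomal protein hosts had medians of 1.19 and 0.94 in this comparison, with 8 of 26 called higher (among them RPL5 at 2.28 and 1.31 and RPL3 at 1.53 and 1.62) and none lower. Medians of the 10 long noncoding hosts were 0.77 and 0.76. Long noncoding genes as a whole, 834 tested, had medians of -0.50 and -0.27, with 7 called higher and 50 lower. The level filter took the mean over both lines, so a gene could enter through the control's bound RNA alone. These values depend on that filter, and no contrast with the hosts is drawn from them. Among the snoRNP core proteins, which bind snoRNAs, FBL (the box C/D methyltransferase; 2.78 and 1.19) and NHP2 (a box H/ACA protein; 1.76 and 1.56) were called higher. In the same libraries the fibroblast-like markers summed to 1090 RPKM in the control and 102 in Connexin43-APEX2 in 2016, and to 224 and 70.2 RPKM in 2017; their part in these differences was not tested.

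For APEX2-NES no host was called (1.65% of all genes higher, 1.03% lower), although the same hosts came closest. SNHG6 lay at 1.17 ± 0.16 in 2016 and 0.97 ± 0.12 in 2017, SNHG5 at 1.75 ± 0.09 and 0.88 ± 0.05, and ZFAS1 at 0.66 ± 0.11 and 0.96 ± 0.08. These sit just under 2-fold in at least 1 table, and with 0.1 RPKM added in place of 1 all 3 were called higher. The 2016 values rest on centring, since the median gene lay at -1.64 there. In RPKM, APEX2-NES held less than the control in 2016 for SNHG6 (2.62 against 4.00) and ZFAS1 (5.56 against 11.9). For SNHG5 the levels were 5.00 against 4.53. SNHG8 was below the median gene in both tables, at -0.68 ± 0.12 and -0.39 ± 0.11. The 3 comparisons with the control share its bound libraries, so likeness between them is not independent support.

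**Figure D3:**
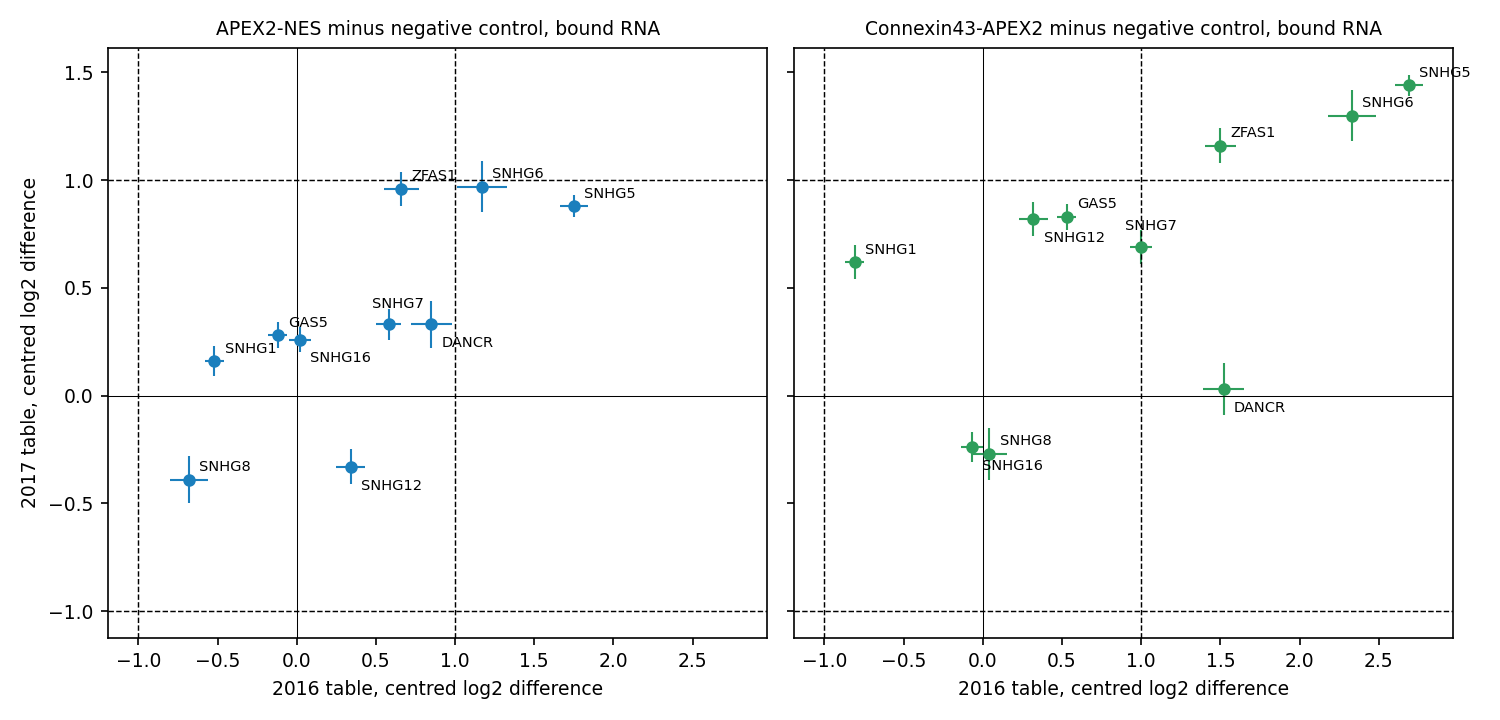
Centred log2 difference of bound RNA from the negative control for each host in the 2016 table (horizontal) and the 2017 table (vertical), for APEX2-NES (left) and Connexin43-APEX2 (right); bars are counting SE and dashed lines mark 2-fold. On the right ZFAS1, SNHG5 and SNHG6 lie past 2-fold on both axes; on the left no host does, and SNHG5 and SNHG6 pass it in 2016 alone.

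The comparison of the H2B and NES lines, as bound minus total RNA, asks which transcripts were nearer to chromatin than to the cytoplasmic enzyme. SNHG6 was called higher in H2B-APEX2 (2.60 ± 0.10, 6.05-fold), as was DANCR (1.03 ± 0.11, 2.04-fold), and ZFAS1 was called lower (-1.10 ± 0.09, 2.15-fold). Among all genes 25.1% were called higher and 24.9% lower, so the 2 and 1 of 10 hosts are no more than the background. SNHG12 (0.92 ± 0.10) and SNHG8 (0.84 ± 0.13) lay just short of 2-fold and DANCR just past it; centred on protein-coding genes DANCR was at 0.95. GAS5 (0.12 ± 0.07), SNHG1 (0.21 ± 0.09), SNHG7 (0.10 ± 0.09) and SNHG16 (-0.08 ± 0.09) were near the median gene. Beside the hosts, MALAT1, a long noncoding RNA of nuclear speckles, was higher in H2B-APEX2 by 2.15. The long noncoding RNA LINC00657 lay at -0.60 without a call. NEAT1, another nuclear long noncoding RNA, fell under the level filter, with bound RNA of 0.903 RPKM in H2B-APEX2 and 1.58 in APEX2-NES.

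Across the 2857 protein-coding genes with a known base composition, this difference ran against GC content (Pearson r = -0.57 over genes, which do not count as replicates). The hosts span 42.0% GC (SNHG6) to 65.9% (SNHG7). Set against the 905 genes within 2 percentage points of its own GC content, whose median was 0.96, SNHG6 exceeded 94.1%. DANCR, at 53.7% GC, exceeded 93.0% of 690 such genes (median -0.58). SNHG12, at 56.6% GC, exceeded 95.4% of 560 (median -0.86), and SNHG7 exceeded 94.2% of 154 (median -1.29). The SNHG12 value rests on a low level in bound RNA of APEX2-NES, 0.423 RPKM (66 reads), under the added 1 RPKM. ZFAS1, at 55.7% GC, exceeded 35.7% of 605 such genes (median -0.74), and GAS5, at 42.2%, exceeded 23.4% of 923 (median 0.91). With the GC trend taken out, an alternative chosen after seeing the data, SNHG6, DANCR, SNHG7 (1.40) and SNHG12 (1.75) were higher and ZFAS1 lost its call (-0.29). The share of all genes called after this step is not given here, so an excess of hosts cannot be read from it. The part of base composition in the library differences was not tested beyond this.

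**Figure D4:**
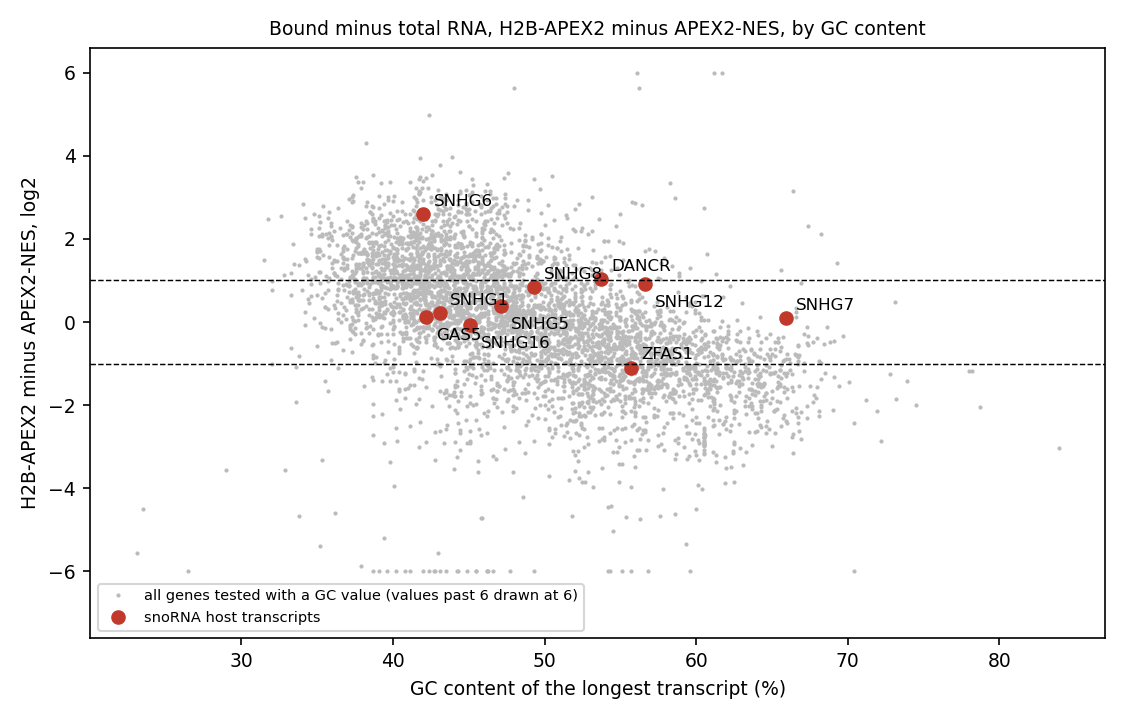
Difference between H2B-APEX2 and APEX2-NES in bound minus total RNA (log2, centred) against the GC content of the longest annotated transcript, for all genes tested (grey) and the 10 hosts (red), with dashed lines at 2-fold. The grey cloud slopes down with GC content; SNHG6 lies in the upper part of its GC neighbourhood and GAS5, SNHG1 and SNHG16 in the lower part of theirs.

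In the same comparison 6 of 18 protein-coding snoRNA hosts outside the ribosome were called higher and 3 lower. NOP58 (2.70), which encodes a core protein of box C/D particles, and NCL (1.09) were among the higher, and HSPA8 (-1.54), which encodes a chaperone, among the lower. Of the 26 ribosomal protein hosts 5 were called higher and 11 lower (median -0.42). Among them RPL5 (2.92) and RPL7 (2.14) were higher and RPL13 (-3.07) and RPSA (-2.42) lower. Of the 10 nonsense-mediated decay factors listed 4 were tested. UPF3B (3.49) and UPF3A (1.39) were called higher, as were 25.1% of all genes, and SMG5 lay at -0.47. SNHG3, a noncoding host outside the 10, was lower (-1.83).

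Connexin43-APEX2 against H2B-APEX2 gave ZFAS1 higher (1.28 ± 0.09) and SNHG6 (-2.28 ± 0.11) and SNHG7 (-1.04 ± 0.09) lower, where 25.2% of all genes were called higher and 24% lower. With the GC trend removed ZFAS1 was at 0.31 and lost its call. The SNHG7 call turned with the measure: in bound RNA alone its difference was 0.81, the other way. Connexin43-APEX2 against APEX2-NES, held by both tables, gave no call for any host, where 0.197% of all genes were called higher and 4.08% lower. In 2016 both lines share 1 total RNA library, which cancels, so the 2016 value is a difference in bound RNA alone. The 2017 value is bound minus total RNA. The values in 2016 and 2017 were 0.91 ± 0.09 and 0.24 ± 0.12 for SNHG6, 0.68 ± 0.05 and 0.19 ± 0.05 for SNHG5 and 0.59 ± 0.07 and 0.10 ± 0.08 for ZFAS1. Between tables SNHG12 (-0.28 and 1.06), SNHG7 (0.16 and -1.01), SNHG1 (-0.54 and 0.37) and GAS5 (0.40 and -0.07) changed sign, and SNHG12 and SNHG7 lay past 2-fold in 2017. As the measures differ, a change of sign is not one between tables alone. SNHG12 in 2017 had 0.423 RPKM in bound RNA of APEX2-NES, under the added 1 RPKM. SNHG7 in 2017 had 3.03 RPKM in Connexin43-APEX2 against 2.55 in APEX2-NES in bound RNA, and 11.5 against 3.94 in total RNA. SNHG3 was called lower in both (-1.49 and -2.29).

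In total RNA 1 host was called against the control in any line. No host was called in H2B-APEX2 (2.23% of all genes higher, 2.18% lower) or in APEX2-NES (6.72% higher, 4.3% lower), and their values ran from -0.57 ± 0.02 (SNHG5) to 0.41 ± 0.06 (SNHG6) and from -0.42 ± 0.03 (GAS5) to 0.64 ± 0.05 (SNHG6). In Connexin43-APEX2 SNHG7 was called higher (1.60 ± 0.04, 3.04-fold; 12.3% of all genes higher, 6.3% lower), and DANCR was at -0.90 ± 0.07. SNHG3 was higher there too, at 64.0 against 7.56 RPKM (3.36).

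Few reads fell on the hosted snoRNAs themselves, and 8 of the 35 on the list of known hosted snoRNAs were annotated inside their host on its strand in the gene tables, in 6 hosts. SNORA26, an H/ACA snoRNA inside DANCR, was the snoRNA with reads in all 12 libraries (307 reads in sum). Its levels in total RNA of 2017 were 3.04 RPKM in the control (28.9 reads), 2.04 with APEX2-NES (23.0 reads), 0.774 with H2B-APEX2 (4.2 reads) and 14.8 with Connexin43-APEX2 (140 reads). In bound RNA of 2017 the control had 4.82 RPKM from 29.9 reads, and the APEX2 lines had 0.86 to 4.48 reads each, too few to order them. SNORD12, in ZFAS1, had 31 reads in sum and SNORD12C 23. SNORD87, in SNHG6, has a counted length of 0 in the tables and therefore no value. Depth does not allow a comparison of snoRNA with host for the others, which had 4 to 12 reads in sum.

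The annotation of the hosts limits what their counts can mean. In hg19, SNHG6 lies at chr8:67833918-67838633 on the minus strand, ZFAS1 at chr20:47894714-47905797 on the plus strand, SNHG5 at chr6:86370709-86388451 on the minus strand and DANCR at chr4:53578596-53586518 on the plus strand. Their counted lengths are 804, 848, 2206 and 1344 bases. The counted length of GAS5 (chr1:173833037-173838020, minus strand) is 3589 bases, where its longest GENCODE 29 transcript has 1698. The counted length also exceeds the longest such transcript for other hosts, such as SNHG5 (1032 bases) and SNHG12 (3375 against 1998), so bases outside that transcript enter these counts. Reads of spliced and unspliced forms were not separated for any host. Of the 10 hosts 7 overlap a gene on the opposite strand, and the labels do not say whether reads were counted by strand. MCMDC2, which shares 366 bases with SNHG6, had at most 0.459 RPKM in any library and 0.142 in bound RNA of H2B-APEX2. RP11-177B4.1, opposite DANCR, had 0.182 RPKM in that library. These levels are over each whole gene (5989 counted bases for MCMDC2) and not over the shared bases. The part of opposite-strand reads in the SNHG6 and DANCR values was not tested. FAM69B, opposite SNHG7, reached 6.18 RPKM in bound RNA of Connexin43-APEX2 in 2016, where SNHG7 had 10.2, so reads of that pair may not be told apart. ZNFX1, opposite ZFAS1, had 0.0243 to 6.74 RPKM.

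Over the 12 RNA libraries, the level of GAS5 followed the mean of the other hosts most closely (Pearson r = 0.98 on log2(RPKM + 1)), then SNHG8 (0.91), SNHG12 (0.88) and ZFAS1 (0.85). SNHG1 and SNHG16 followed it least (0.40 each). These correlations are descriptions: the libraries share cell line and depth effects and differ between total and bound RNA. Among 608 other genes with a mean of at least 10 RPKM, whose median r with the mean of the hosts was 0.656, the highest were BRK1 (0.969), PRDX6 (0.967), BTF3 (0.964), PPIA (0.96) and PPIAL4G (0.959). PPIA and PPIAL4G are near-identical in sequence, so reads may be split between them.

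Footprints, the RNA stretches protected by bound proteins, could not be described for the hosts. Each of the 4 footprint sheets listed 19892 genes, of which 18861 are protein-coding in the gene tables, and none of the 10 hosts was among them.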

How the data were processed

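Total and bound RNA were sequenced from HEK293 T-REx lines. Per the labels' protocols, libraries came from a directional kit, with depletion of ribosomal RNA for total RNA and without it for bound RNA. The submitters' processing notes name bcl2fastq 2.17.1, TopHat and the genome hg19; the counting tool, annotation and use of strand were not given in the sources used. The authors deposited estimated counts per gene, with 0.001 standing for 0 and fractions for split reads, and RPKM values per counted length, with 1e-07 standing for 0. By the library sizes that the deposited RPKM imply, 21.5% to 75.7% of a library's reads were in the gene table. The authors' footprint sheets hold read and cluster counts per gene, per the file headers, and list none of the hosts, so they were not analysed further.

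The 10 hosts and all gene lists were chosen with earlier results of these data known. Each comparison used log2(RPKM + 1), genes with a mean of at least 1 RPKM, and centring on the median gene of each table; at least 2-fold in 1 direction in every table was the call. With 1 sample per group no p-value enters the calls. Counting errors followed from the estimated counts and cover counting only. A simulation with known folds was run on the same steps. All 10 hosts are named; of other lists, genes past the call or the most abundant. Likeness was Pearson r with the mean of the hosts. GC content is that of the longest GENCODE 29 transcript, and start windows are RefSeq's. Alternatives were another pseudocount, no filter, no centring, protein-coding centring, edgeR 4.0.16 TMM scaling, bound RNA alone, 1 table at a time and limma 3.58.1 with tables as replicates. Scripts ran in Python 3.11.15 and R 4.3.3. 2 columns of the tables belong to no sample of the labels.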

Additional observations from a re-analysis of the deposited data

How the results depend on the processing

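Counts of hosts past the 2-fold call, as reported, are compared here with those under each alternative. Apart from limma, the share of all genes called under an alternative is not given here. The counts therefore show how the calls move and not whether hosts exceed the background. With 1 table alone the level filter and the centring follow that table's libraries, so the genes tested change too. In bound against total RNA, the call counts of 0 in APEX2-NES, 0 in Connexin43-APEX2 and 2 in the control became 4, 5 and 7 with a pseudocount of 0.1, 8, 8 and 8 with TMM scaling, and 7, 6 and 8 with the 2017 table alone. With the 2016 table alone they were 2 in APEX2-NES and 3, all higher, in Connexin43-APEX2. Centring on protein-coding genes gave 1 in APEX2-NES. Without the filter or without centring the control's 2 became 0, and the 6 of H2B-APEX2 became 2 and 3. For bound RNA of Connexin43-APEX2 against the control, the 3 became 1 without the filter, 1 without centring, 5 in the 2016 table alone and 0 under limma. Before centring, the median gene lay at -0.17 and -0.34 there. For APEX2-NES against the control, the 0 became 3 with a pseudocount of 0.1, 3 with TMM scaling and 2 in the 2016 table alone; the median gene lay at -1.64 in 2016 before centring. Connexin43-APEX2 against APEX2-NES gave 1 in the 2017 table alone. Total RNA of Connexin43-APEX2 gave 2 in place of 1 with a pseudocount of 0.1, with no filter, with no centring and with TMM scaling. The other counts kept within 1.5 times, and the cause of these shifts was not tested.

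SNHG7 turned from -1.04 to 0.81 in bound RNA alone (Connexin43-APEX2 against H2B-APEX2). With the GC trend removed, chosen after seeing the data, SNHG7 and SNHG12 turned to 0.63 and 0.21 in H2B-APEX2 bound against total RNA. limma, which takes the tables as replicates, called 0 of 9532 genes in each of its 3 contrasts at an adjusted p of 0.05; 334, 1673 and 780 had an unadjusted p under 0.05. SNHG5 and SNHG6 had an adjusted p of 0.178 in Connexin43-APEX2 against the control. The footprint alternatives were not run, since no host is listed there. limma's fit held the table as a block.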
